A study of Mus musculus with 62 samples.

Results

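The genes of eicosanoid synthesis and of 2 prostaglandin receptors were followed in mouse lung after a house dust mite allergen. The list holds 10 genes: Pla2g4c, Alox5, Alox5ap, Ltc4s, Alox15, Ptgs1, Ptgs2, Ptges, Ptgfr and Ptger4. Each was read from the array row, or transcript cluster, whose annotation gives that symbol alone, and 9 of the 10 have such a row, of 14824 genes read in this way; Ptgs1, the constitutive cyclooxygenase, was not measured here. Each of the 9 has 1 row, so no choice among rows was needed. RNA of the right lower lung lobe came from 48 male mice of 2 inbred strains, on 62 exon arrays. Every mouse, controls included, was sensitised by intraperitoneal injection of 10 µg of Der p 1, a cysteine protease allergen of the house dust mite, on days 1 and 8. On day 15 the mice received either 50 µg of Der p 1 or PBS, and lungs were taken on day 18, 72 h later. The 4 groups were BALB/cJ mice given Der p 1 (14 mice, 20 arrays), BALB/cJ mice given PBS (11 mice, 15 arrays), C57BL/6J mice given Der p 1 (12 mice, 16 arrays) and C57BL/6J mice given PBS (11 mice, 11 arrays). The PBS mice therefore model a sensitised but unchallenged lung, and no unsensitised lung was measured here.

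Values are the deposited log2 expression values. They describe 1 gene across mice and set no gene's level against another's. The 7 mice with 3 arrays each were averaged, and n counts mice. Defining lung genes were bright in every group: the lowest mouse had 12.80 for Sftpc (surfactant), 12.40 for Scgb1a1 (club cells) and 11.52 for Ager (alveolar type I cells). Some facts about the mice bear on the results. The mouse numbers begin with 5 or with 6 (number series 5 and 6), and the labels do not say what this marks; both series hold mice of all 4 groups (6 and 8, 5 and 6, 4 and 8, 5 and 6 mice, in the order above). In mouse633 (labelled BALB/cJ, PBS), mouse634 (BALB/cJ, Der p 1) and mouse644 (C57BL/6J, PBS), 5 of 5 genes that answer the allergen (Clca1, Chil4, Retnla, Rnase2a and Slc26a4) lay nearer the median of the other challenge group of their strain. Mouse633, for example, had 12.59 for Clca1, against a median of 11.76 in BALB/cJ mice given Der p 1 and 5.87 in BALB/cJ mice given PBS. Mouse526 (BALB/cJ, Der p 1) had 3 such genes, and no other mouse had more than 2. The labels were kept, and results are also given without these 3 mice. They were picked by the expression of 5 genes, so results without them are no independent evidence. In whole lobe RNA, fewer cells of a type and less RNA per cell cannot be told apart.

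Eicosanoids are lipid signals made from arachidonic acid that phospholipases A2 free from membranes. Lipoxygenases turn it into leukotrienes and hydroxy acids, and cyclooxygenases turn it into prostaglandin H, which terminal synthases convert into single prostaglandins that act on their own receptors. In allergic airways the cysteinyl leukotrienes are known as constrictors of airway smooth muscle, while prostaglandin E is known both for damping airway inflammation and for relaxing airways. Of the genes listed, Pla2g4c encodes a cytosolic phospholipase A2. Alox5, its partner protein Alox5ap and Ltc4s make cysteinyl leukotrienes, and Alox15 encodes a lipoxygenase that makes hydroxy acids. Ptgs2 is the inducible cyclooxygenase and Ptges an inducible prostaglandin E synthase, and Ptgfr and Ptger4 are receptors of prostaglandins F and E. In RefSeq's GRCm38.p6 annotation the genes lie at chr7:13311507-13360674 (Pla2g4c, cluster 6973414), chr6:116410071-116461178 (Alox5, cluster 6956762), chr5:149265004-149288153 (Alox5ap, cluster 6935701), chr11:50236461-50238532 (Ltc4s, cluster 6788017). Those of the other measured members lie at chr11:70344147-70390538 (Alox15, cluster 6789411), chr1:150100031-150108234 (Ptgs2, cluster 6753917), chr2:30889471-30931020 (Ptges, cluster 6885796), chr3:151798610-151837528 (Ptgfr, cluster 6910597), chr15:5233399-5244187 (Ptger4, cluster 6833640). The value of a cluster summarises probe sets over the exons of a gene.

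The members that passed the test in at least 1 challenge comparison are shown by the 250 bases before an annotated start, since some rose and others fell in the same lungs. RefSeq (GRCm38.p6) gave windows for 8 of the 10 genes, 9 windows in all; Alox15 and Alox5ap had no entry. The windows read 5′ to 3′ on the gene's strand, and capitals mark matches to any of 9 motifs on either strand. Those of Pla2g4c and Ptges lie inside the gene spans given above, each before a start within its gene.
Pla2g4c, chr7:13325417-13325666, plus strand: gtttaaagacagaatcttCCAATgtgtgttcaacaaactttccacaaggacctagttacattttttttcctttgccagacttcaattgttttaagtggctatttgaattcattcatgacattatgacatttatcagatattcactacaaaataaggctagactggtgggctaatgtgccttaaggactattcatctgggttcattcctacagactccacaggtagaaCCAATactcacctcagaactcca
Ptgs2, chr1:150099781-150100030, plus strand: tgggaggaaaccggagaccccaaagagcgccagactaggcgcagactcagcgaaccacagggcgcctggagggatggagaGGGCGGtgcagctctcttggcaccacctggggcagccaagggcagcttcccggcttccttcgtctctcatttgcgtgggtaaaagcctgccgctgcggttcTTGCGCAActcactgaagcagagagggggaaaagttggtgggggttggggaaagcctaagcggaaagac
Ptges, chr2:30903298-30903547, minus strand: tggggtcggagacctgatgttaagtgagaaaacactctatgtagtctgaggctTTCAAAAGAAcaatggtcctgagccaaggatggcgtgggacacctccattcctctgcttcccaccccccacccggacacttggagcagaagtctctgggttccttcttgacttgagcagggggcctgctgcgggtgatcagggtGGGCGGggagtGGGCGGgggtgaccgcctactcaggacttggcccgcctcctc
Ptgfr, chr3:151837529-151837778, minus strand: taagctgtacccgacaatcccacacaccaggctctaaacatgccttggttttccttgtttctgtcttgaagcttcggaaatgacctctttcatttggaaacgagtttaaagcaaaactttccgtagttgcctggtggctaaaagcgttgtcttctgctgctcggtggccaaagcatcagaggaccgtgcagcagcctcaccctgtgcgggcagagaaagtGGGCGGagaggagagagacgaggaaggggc
Ptger4, chr15:5244188-5244437, minus strand: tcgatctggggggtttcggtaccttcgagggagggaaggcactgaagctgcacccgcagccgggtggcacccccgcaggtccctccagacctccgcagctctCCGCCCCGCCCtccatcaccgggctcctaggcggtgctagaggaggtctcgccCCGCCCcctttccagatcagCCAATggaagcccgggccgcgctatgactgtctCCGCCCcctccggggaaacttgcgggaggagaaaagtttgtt
Of these 5 windows, 4 hold a GC box (GGGCGG), as do 32.7% of 32851 mouse windows of the same length. The window of Pla2g4c, at the first of its 2 starts with a window, holds no GC box but a pair of CCAAT boxes (CCAAT, in 33.8% of windows), and that of Ptger4 holds 1. The other window of Pla2g4c, chr7:13329072-13329321, holds none of the 9 motifs and is not among these 5. The printed window of Pla2g4c is thus the one with matches. The window of Ptges holds a site of the STAT6 N4 form (TTCNNNNGAA, in 5.85% of windows). That of Ptgs2 holds a C/EBP site (TTGCNNAA, in 9.56%), which reads the same on both strands. In Ptger4, 4 GC boxes lie on the opposite strand, and the first overlaps the next by 1 base. None of the 9 windows holds TATAAA (12.4% of windows), the AP-1 letters TGANTCA (6.75%), the STAT N3 form TTCNNNGAA (7.02%), the E box CACGTG (6.02%) or the short CRE letters TGACG (17.8%). These are matches of letters alone.

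Challenge moved some of these genes up and others down in each strain. In C57BL/6J lungs 5 of 9 members passed the threshold (limma, adjusted p under 0.05 over all 16715 clusters), where 18.8% of all clusters passed (9.85% higher and 8.97% lower). Alox15, Pla2g4c and Ptger4 rose after Der p 1, and Ptgs2 and Ptgfr fell. In BALB/cJ lungs 3 of 9 passed, against 1.93% of all clusters (1.7% higher and 0.233% lower): Ptges and Ptger4 rose and Ptgfr fell. The median difference of the 9 members was 0.21 on the log2 scale in C57BL/6J and 0.23 in BALB/cJ mice, beside 0.07 and −0.03 over all clusters. The median size of the difference, sign apart, was 0.45 in C57BL/6J and 0.48 in BALB/cJ mice, beside 0.19 and 0.09 over all clusters. For every member the mice of the compared groups overlapped; 0.0479% of all clusters had groups that did not in C57BL/6J challenge, 0% in BALB/cJ challenge, 0.784% between strains after PBS and 0.413% after Der p 1. The members were listed with earlier results of these data known, so the shares describe them and test nothing.

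**Figure D1:**
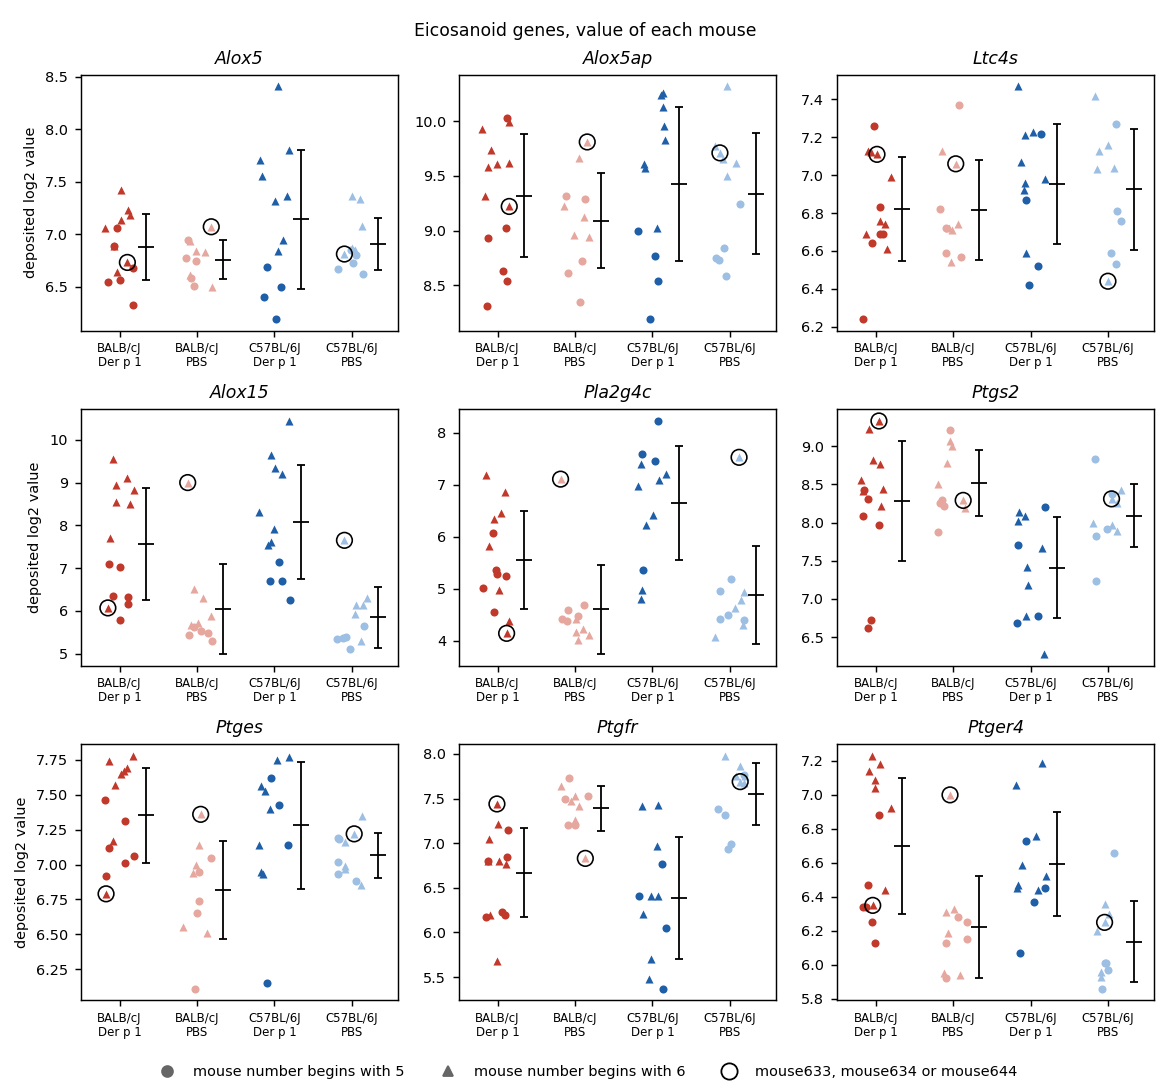
Deposited log2 value of each of 9 eicosanoid genes (y axes, each with its own range) in each mouse, by strain and challenge (x axes); bars give mean ± SD over mice, point shapes the number series, and circles mark mouse633, mouse634 and mouse644. Alox15 and Pla2g4c spread widely after Der p 1 and are low in most PBS mice, Ptgfr lies lower after Der p 1 in both strains, and the groups of Alox5ap and Ltc4s overlap throughout.

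Alox15, the lipoxygenase that in mice is known from eosinophils and from macrophages activated by type 2 cytokines, had the largest difference of the 9 genes in both strains. In C57BL/6J mice its lowest, median and highest values were 6.25, 7.77 and 10.44 after Der p 1, against 5.12, 5.65 and 7.65 after PBS. The PBS mouse at 7.65 was mouse644, and the other 10 PBS mice lay at 6.30 or below. Every challenged C57BL/6J mouse was above the PBS mean, and 6 of 12 were above the highest PBS mouse. Alox15 rose by 2.22 ± 0.45 on the log2 scale (SE; 4.67-fold, 95% interval 2.48 to 8.79; adjusted p = 0.000685), and by 2.40 without the 3 mice (adjusted p = 8.26e-05). In BALB/cJ mice the values were 5.79, 7.40 and 9.54 after Der p 1, against 5.30, 5.68 and 9.0 after PBS. Here 13 of 14 challenged mice lay above the PBS mean, but the groups overlapped, with mouse633 at 9.0 among the PBS mice and mouse634 at 6.07 among the challenged. The difference of 1.53 ± 0.44 missed the threshold (adjusted p = 0.0516). Without mouse633 and mouse634 it was 1.94 and passed (adjusted p = 0.00168). It also passed when mouse633 alone was left out (adjusted p = 0.00431), and without mouse518, mouse520, mouse525, mouse526, mouse532, mouse534, mouse538, mouse634, mouse644, mouse646 or mouse659, while leaving out mouse624 gave the highest adjusted p, 0.114. In the 7 mice with repeat arrays, which had 5.44 to 7.15 for Alox15, the SD between arrays of a mouse was 0.123. The SD between mice of a group was 1.15, which includes the difference between number series. The spread of repeat arrays at higher levels of Alox15 was not measured.

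Pla2g4c, the phospholipase, had the second-largest difference in both strains. In C57BL/6J mice it had 4.81, 7.03 and 8.23 after Der p 1, against 4.07, 4.63 and 7.53 after PBS (lowest, median and highest). Mouse644 was the PBS mouse at 7.53, and the next PBS value was 5.18; 9 of the 12 challenged mice had 6.22 or more. Pla2g4c rose by 1.77 ± 0.38 (3.40-fold, 95% interval 2.0 to 5.79; adjusted p = 0.00113), and by 2.03 without the 3 mice (adjusted p = 1.96e-05). In BALB/cJ mice it had 4.14, 5.32 and 7.19 after Der p 1, against 4.02, 4.41 and 7.11 after PBS. The groups overlapped, with mouse633 at 7.11 on the PBS side, and the difference of 0.95 ± 0.37 did not pass (adjusted p = 0.216). Without mouse633 the adjusted p was 0.0375, and without mouse633 and mouse634 the difference was 1.31 (adjusted p = 0.0151). The SD between repeat arrays was 0.223, against 0.963 between mice of a group.

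None of the 3 genes of leukotriene synthesis passed the test in either challenge comparison. Alox5, the lipoxygenase that starts this branch, had 6.32, 6.89 and 7.42 after Der p 1 and 6.5, 6.77 and 7.07 after PBS in BALB/cJ mice. In C57BL/6J mice it had 6.19, 7.13 and 8.41 after Der p 1 and 6.62, 6.85 and 7.36 after PBS. Both pairs of groups overlapped, although 4 of the 12 challenged C57BL/6J mice lay above the highest PBS mouse and 3 below the lowest. The differences were 0.13 (95% interval −0.19 to 0.44; adjusted p = 0.855) in BALB/cJ and 0.23 (−0.09 to 0.56; adjusted p = 0.292) in C57BL/6J mice. The challenged C57BL/6J mice split by number series, with a mean of 7.49 ± 0.50 in series 6 (SD, n = 8) and 6.44 ± 0.21 in series 5 (n = 4), beside 7.05 and 6.73 after PBS. Alox5ap, which presents arachidonic acid to Alox5, differed by 0.23 (−0.22 to 0.67) in BALB/cJ and 0.09 (−0.37 to 0.55) in C57BL/6J mice. Ltc4s, the synthase of the first cysteinyl leukotriene, differed by 0.01 (−0.23 to 0.24) in BALB/cJ and 0.03 (−0.22 to 0.27) in C57BL/6J mice. These intervals leave room for a change of Ltc4s up to about 1.21-fold in C57BL/6J lungs and of Alox5ap up to 1.59-fold in BALB/cJ lungs, so the 3 genes are not shown to be unchanged.

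Ptgs2, the inducible cyclooxygenase, was lower after Der p 1 in C57BL/6J lungs. It had 6.28, 7.54 and 8.20 after Der p 1, against 7.24, 7.99 and 8.83 after PBS, and 5 of 12 challenged mice lay below the lowest PBS mouse. Ptgs2 fell by 0.68 ± 0.24 on the log2 scale (1.6-fold; adjusted p = 0.0428). In BALB/cJ mice it had 6.62, 8.42 and 9.33 after Der p 1, against 7.88, 8.29 and 9.21 after PBS. The 2 lowest challenged BALB/cJ mice (6.62 and 6.72) were far below the other 12, all at 7.97 or higher, and the difference of −0.24 (−0.71 to 0.23) did not pass (adjusted p = 0.802). The fall in C57BL/6J mice stood close to the threshold. It ended without the 3 mice (−0.66, adjusted p = 0.0589) and without any 1 of mouse529, mouse532, mouse537, mouse540, mouse643, mouse644, mouse648, mouse649, mouse656, mouse657, mouse659 and mouse661 (highest adjusted p = 0.0923, mouse661). The spread of an array's values was also compared: the SD over all clusters of a mouse averaged 1.86 ± 0.15 after Der p 1 and 1.96 ± 0.11 after PBS in C57BL/6J mice, and 1.95 ± 0.11 and 1.94 ± 0.061 in BALB/cJ mice. With that SD as a covariate the difference of Ptgs2 in C57BL/6J mice was −0.33 (adjusted p = 0.292).

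Ptges, which makes prostaglandin E from the cyclooxygenase product, rose in BALB/cJ lungs. Its values were 6.79, 7.38 and 7.78 after Der p 1, against 6.11, 6.94 and 7.36 after PBS. Of the 14 challenged mice 7 lay above every PBS mouse, and the lowest challenged and highest PBS mice were mouse634 and mouse633. The rise was 0.53 ± 0.14 (1.45-fold, 95% interval 1.2 to 1.75; adjusted p = 0.0227). It was 0.63 without the 3 mice (adjusted p = 0.00229), and the call ended without mouse521, mouse620, mouse621 or mouse623 (highest adjusted p = 0.062, mouse521). In C57BL/6J mice Ptges had 6.15, 7.42 and 7.77 after Der p 1, against 6.85, 7.02 and 7.35 after PBS. There 7 of 12 challenged mice exceeded every PBS mouse while mouse532 lay below all of them, and the difference of 0.21 (−0.07 to 0.50) did not pass (adjusted p = 0.274). The difference passed in 1 of 16 alternative settings (adjusted p = 0.0438).

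The 2 receptors moved in opposite directions in both strains. Ptgfr, the receptor of prostaglandin F, had 5.37, 6.41 and 7.43 after Der p 1, against 6.93, 7.69 and 7.98 after PBS in C57BL/6J mice. All 12 challenged mice lay below the PBS mean and 9 below every PBS mouse. Ptgfr fell by 1.17 ± 0.19 (2.25-fold; adjusted p = 0.000104), the 32nd smallest p-value of all clusters in that comparison. It was −1.15 without the 3 mice (adjusted p = 6.65e-05). In BALB/cJ mice it had 5.68, 6.80 and 7.44 after Der p 1, against 6.83, 7.47 and 7.73 after PBS. Here 9 of 14 challenged mice lay below every PBS mouse, and the one challenged mouse above the PBS mean was mouse634. The fall was 0.72 ± 0.19 (1.65-fold; adjusted p = 0.0241). It was −0.84 without the 3 mice (adjusted p = 0.00384), and the call ended without mouse522, mouse623 or mouse624 (highest adjusted p = 0.0575, mouse624).

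Ptger4, the prostaglandin E receptor that signals through cyclic AMP, rose in both strains. In BALB/cJ mice it had 6.13, 6.67 and 7.23 after Der p 1, against 5.92, 6.19 and 7.0 after PBS, the last of these in mouse633. The rise was 0.48 ± 0.13 (1.39-fold, 95% interval 1.16 to 1.66; adjusted p = 0.0339), with 13 of 14 challenged mice above the PBS mean. In C57BL/6J mice it had 6.07, 6.5 and 7.19 after Der p 1, against 5.86, 6.01 and 6.66 after PBS. The rise was 0.45 ± 0.13 (1.37-fold, 95% interval 1.14 to 1.65; adjusted p = 0.0137), with 11 of 12 above the PBS mean. Without the 3 mice the rises were 0.58 in BALB/cJ (adjusted p = 0.00208) and 0.47 in C57BL/6J (adjusted p = 0.00981). The BALB/cJ call ended when only the BALB/cJ groups were fitted (adjusted p = 0.0777) and without any 1 of mouse513, mouse514, mouse522, mouse525, mouse620, mouse621, mouse622, mouse623, mouse624, mouse625, mouse631, mouse635 and mouse637 (highest adjusted p = 0.077, mouse513). The calls of Alox15, Pla2g4c, Ptgfr and Ptger4 in C57BL/6J mice held whichever single mouse was left out.

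**Figure D2:**
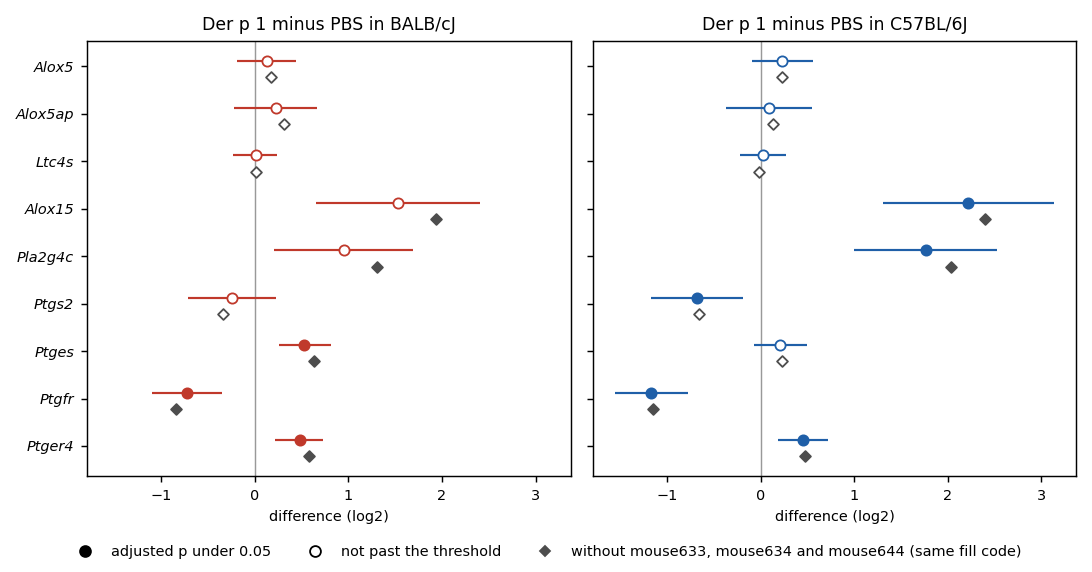
Difference between Der p 1 and PBS mice (x axis, log2) for 9 genes (y axis) in BALB/cJ (left) and C57BL/6J mice (right); circles with 95% intervals use all mice, diamonds leave out mouse633, mouse634 and mouse644, and filled symbols have an adjusted p under 0.05. Ptgfr lies left of 0 and Ptger4 right of it in both strains, and Alox15 and Pla2g4c in BALB/cJ mice are filled only without the 3 mice.

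The question which the strains raise is whether these genes answered the allergen differently in BALB/cJ and C57BL/6J mice. Tested directly, no member differed in its response between the strains: 0 of 9 passed, where 0.012% of all clusters did, and 0 had an unadjusted p under 0.05 in limma (lowest p = 0.104, Ptgfr). The response of Pla2g4c was 0.82 smaller in BALB/cJ mice, with an interval of −1.88 to 0.25, and that of Alox15 was 0.69 smaller (−1.96 to 0.58). That of Ptgfr differed by 0.45 (−0.09 to 0.99). These wide intervals do not show that the strains responded alike, and the different lists of called genes are no evidence that they responded differently. With array quality weights the Ptgfr difference was 0.69 and passed (adjusted p = 0.049), but 1759 of 16715 clusters passed in that fit.

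After PBS alone 0 of 9 members differed between BALB/cJ and C57BL/6J lungs, where 4.66% of all clusters did (1.9% higher and 2.76% lower in BALB/cJ mice), and 0 had an unadjusted p under 0.05 in limma (lowest p = 0.0914). After Der p 1, 2 of 9 differed, against 13.3% of all clusters (6.42% higher and 6.87% lower in BALB/cJ mice). Ptgs2 was higher in BALB/cJ mice, with a mean of 8.28 ± 0.78 (SD, n = 14), against 7.41 ± 0.66 (n = 12) in C57BL/6J mice. Of the 14 BALB/cJ mice 10 lay above every C57BL/6J mouse, a difference of 0.87 ± 0.23 (1.82-fold, 95% interval 1.33 to 2.51; adjusted p = 0.00782). The call held whichever single mouse was left out but ended with array SD as a covariate (0.55, adjusted p = 0.0525) and in series 5 alone (0.35, adjusted p = 0.661). Pla2g4c was lower in BALB/cJ mice, at 5.55 ± 0.94, against 6.65 ± 1.10 in C57BL/6J mice. The difference was −1.09 ± 0.36 (2.14-fold; adjusted p = 0.0347), and 12 of 14 BALB/cJ mice lay below the C57BL/6J mean. That call ended after quantile normalization (−1.02, adjusted p = 0.0547), when only the challenged groups were fitted (adjusted p = 0.0577) and with array SD as a covariate (−1.12, adjusted p = 0.0522). In series 6 alone the difference was smaller and did not pass (−0.61, adjusted p = 0.389). Means there were 5.77 in BALB/cJ and 6.39 in C57BL/6J mice (n = 8 each), against 5.26 (n = 6) and 7.17 (n = 4) in series 5. The call also ended without any 1 of mouse526, mouse534, mouse538, mouse540, mouse624, mouse634, mouse636, mouse646, mouse649 and mouse661 (highest adjusted p = 0.068, mouse534). Alox5 after Der p 1 did not pass in all mice (−0.26 ± 0.15; adjusted p = 0.235) but passed in 1 of 16 alternative settings (adjusted p = 0.0444). These comparisons between strains share their groups with the challenge comparisons and are no separate evidence.

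Within each number series the direction of the 6 genes called in a challenge comparison was kept wherever they were called, but their sizes differed. Alox15 in BALB/cJ mice differed by 1.89 between Der p 1 and PBS in series 6 and by 0.99 in series 5, and in C57BL/6J mice by 2.51 in series 6 and 1.33 in series 5. Its level after Der p 1 was also higher in series 6, with means of 8.4 ± 1.08 (SD, n = 8) in BALB/cJ and 8.75 ± 1.06 (n = 8) in C57BL/6J mice, against 6.46 ± 0.51 (n = 6) and 6.70 ± 0.37 (n = 4) in series 5. After PBS it was higher in series 6 as well, at 6.51 in BALB/cJ and 6.24 in C57BL/6J mice, against 5.47 and 5.38 in series 5. Pla2g4c in C57BL/6J mice went the other way, at 1.35 in series 6 and 2.48 in series 5. Fitted alone, series 5 kept the calls of Alox15, Pla2g4c and Ptgfr in C57BL/6J mice (adjusted p = 0.00281, 0.00139 and 0.0208). Series 6 alone kept Alox15, Ptgs2, Ptgfr and Ptger4 there (0.00777, 0.0324, 0.00777 and 0.0236), with Pla2g4c at 0.0759. The BALB/cJ calls of Ptges, Ptgfr and Ptger4 did not pass in either series alone (adjusted p of 0.0875 to 0.677), and Alox15 passed in series 5 alone (adjusted p = 0.0148). Of all clusters, 133 passed in BALB/cJ challenge in series 5 alone, with 6 challenged and 5 PBS mice. In series 6 alone, with 8 and 6 mice, 0 passed. Both mouse633 and mouse634 belong to series 6, and the cause was not tested. No member's response differed between the series past the threshold in a test chosen after its values were seen (0% of clusters passed in either strain). The lowest member p-value was that of Alox5 in C57BL/6J mice (0.44 in series 6, −0.29 in series 5; unadjusted p = 0.0051, adjusted p = 0.541). Without mouse633 and mouse634, Alox15 in BALB/cJ mice differed by 2.72 in series 6 and 0.99 in series 5, which did not pass either (adjusted p = 0.404), where 0.0179% of clusters did.

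**Figure D3:**
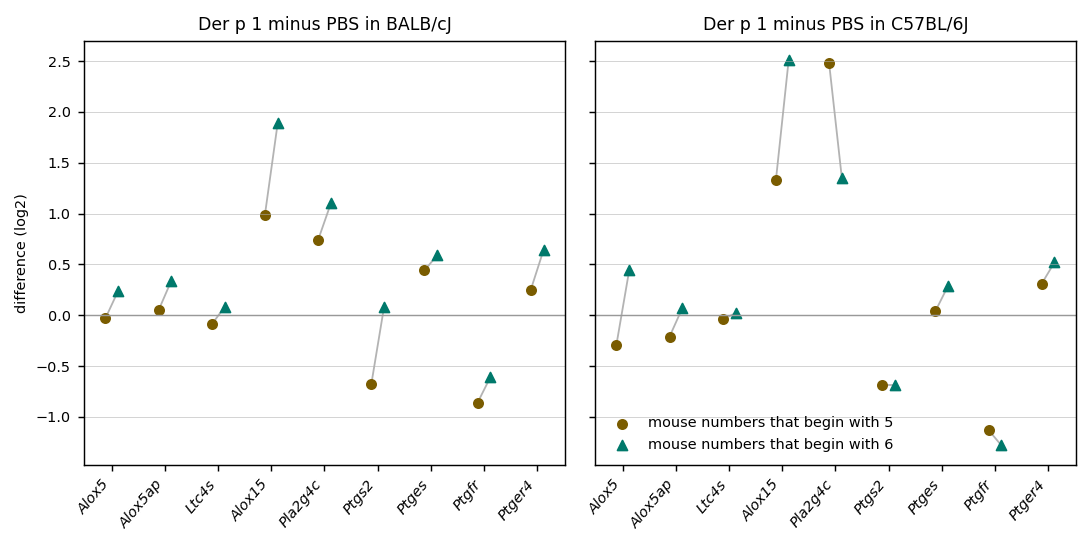
Difference between Der p 1 and PBS mice (y axis, log2) of 9 genes (x axis) within number series 5 (circles) and 6 (triangles), for BALB/cJ (left) and C57BL/6J mice (right), all mice. Alox15 differed more in series 6 in both strains, and Ptgfr is below 0 in all 4 cases.

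Of 64 other genes of the pathway, a list also written with earlier results known, 54 have a row. In C57BL/6J lungs 13 of the 54 passed (24.1%, beside 18.8% of all clusters), 7 higher and 6 lower after Der p 1. The largest rise was that of Cyp4f18, a leukotriene hydroxylase, by 1.04 ± 0.29 (7.74 ± 0.93 after Der p 1, against 6.71 ± 0.50 after PBS; adjusted p = 0.0095). Ptges3, a prostaglandin E synthase and chaperone partner, rose by 0.99 ± 0.17 (adjusted p = 0.000125), with 12 of 12 mice given Der p 1 above the PBS mean and 8 above every PBS mouse, and Tbxas1, thromboxane synthase, by 0.86 ± 0.23 (adjusted p = 0.00742). The lipoxygenases Alox12e (0.61) and Alox8 (0.30), the secreted phospholipase Pla2g3 (0.36) and the thromboxane receptor Tbxa2r (0.28) rose less. The largest fall was that of the epoxide hydrolase Ephx1, by 1.13 ± 0.21 (9.12 ± 0.78 after Der p 1, against 10.25 ± 0.26 after PBS; adjusted p = 0.000304). Hpgd, the enzyme that inactivates prostaglandins, fell by 0.57 ± 0.15 (adjusted p = 0.00574; 12 of 12 challenged mice below the PBS mean and 8 below every PBS mouse). The epoxygenases Cyp2j9 (−0.77) and Cyp2j6 (−0.57), the leukotriene dipeptidase Dpep1 (−0.69) and the platelet lipoxygenase Alox12 (−0.52) fell as well. By list, 4 of 5 cytochromes P450 and epoxide hydrolases passed (Cyp4f18 higher; Ephx1, Cyp2j6 and Cyp2j9 lower), 3 of 5 other lipoxygenases (2 higher, 1 lower), 2 of 9 prostanoid synthases, and 1 each of 15 phospholipases A2, 8 other leukotriene genes, 5 genes of breakdown and transport and 7 prostanoid receptors. Among those that did not pass were the carbonyl reductase Cbr2 (−0.35 ± 0.15; adjusted p = 0.0882), the phospholipase Pnpla8 (−0.51 ± 0.20; adjusted p = 0.0562), the prostaglandin transporter Slco2a1 (−0.19 ± 0.13) and the leukotriene hydrolase Lta4h (−0.17 ± 0.15). Without the 3 mice 11 of the 54 passed, where 2815 of 16715 clusters did. The calls of Alox8 (without mouse529, mouse532, mouse536, mouse643, mouse644, mouse648, mouse649, mouse655, mouse656, mouse659 or mouse661), Tbxa2r (without mouse529, mouse532, mouse643, mouse644, mouse648, mouse649, mouse656 or mouse659) and Cyp2j6 (without mouse532, mouse655, mouse656, mouse657 or mouse661) ended when 1 mouse was left out. The highest adjusted p was then 0.0821 for Alox8, 0.0766 for Tbxa2r and 0.0682 for Cyp2j6.

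In BALB/cJ lungs 0 of the 54 passed, where 1.93% of all clusters did, while 11 had an unadjusted p under 0.05 in limma. The smallest p-value was that of Alox12e (0.51 ± 0.16; adjusted p = 0.0781). Of others that did not pass, Ephx1 differed by −0.51 ± 0.20, Hpgd by −0.31 ± 0.14, Pnpla8 by −0.26 ± 0.19, Cbr2 by −0.15 ± 0.14 and Dpep1 by −0.05 ± 0.16. Without the 3 mice 4 of the 54 passed: Alox12e (0.63 ± 0.15; adjusted p = 0.00646), the prostaglandin D synthase Hpgds (0.62 ± 0.17; adjusted p = 0.018) and Tbxas1 (0.81 ± 0.22; adjusted p = 0.0212) higher, and Ephx1 (−0.67 ± 0.20; adjusted p = 0.0425) lower. In that fit 790 of 16715 clusters passed. The response of 0 of 54 differed between the strains past the threshold, 10 of them at an unadjusted p under 0.05. After PBS, 3 of 54 (5.56%, beside 4.66% of all clusters) differed between BALB/cJ and C57BL/6J lungs: the secreted phospholipase Pla2g2d (0.63 higher in BALB/cJ mice, adjusted p = 1.17e-05, with all 11 BALB/cJ mice above every C57BL/6J mouse, where groups did not overlap in 0.784% of clusters), the prostaglandin F synthase Prxl2b (0.44) and the leukotriene-processing transferase Ggt5 (−0.31). After Der p 1, 7 of 54 did (13%, beside 13.3% of all clusters), 4 higher and 3 lower in BALB/cJ mice. Without the 3 mice 4 did, as did 1757 of 16715 clusters. Cyp4f18 was lower by −1.17 ± 0.27 (adjusted p = 0.00229) and Ptges3 by −0.72 ± 0.16 (adjusted p = 0.00121), with Ggt5 at −0.26. Dpep1 (0.55), the prostacyclin synthase Ptgis (0.33), Pla2g2d (0.33) and Ptges2, another prostaglandin E synthase (0.32), were higher. Of 16 alternative settings, single mice apart, 9 ended the call of Ggt5 after Der p 1, 8 that of Ptgis and 5 that of Ptges2. For Dpep1 and Pla2g2d 3 each did, for Ptges3 1 and for Cyp4f18 0. The smallest difference of Pla2g2d was 0.02, and its highest adjusted p 0.945. Left-out mice ended the calls of Ggt5 after PBS (mouse513, mouse522, mouse531, mouse619, mouse620, mouse621, mouse631, mouse632, mouse644, mouse645, mouse656 or mouse657; highest adjusted p = 0.0844) and after Der p 1 (mouse517, mouse520, mouse525, mouse622, mouse634, mouse636, mouse646, mouse649, mouse659 or mouse661; 0.0732). They also ended those of Ptges2 (mouse534, mouse634, mouse636, mouse637, mouse649 or mouse661; 0.0695) and Ptgis (mouse525, mouse532, mouse634, mouse635, mouse636, mouse637, mouse646, mouse648 or mouse661; 0.0858) after Der p 1.

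**Figure D4:**
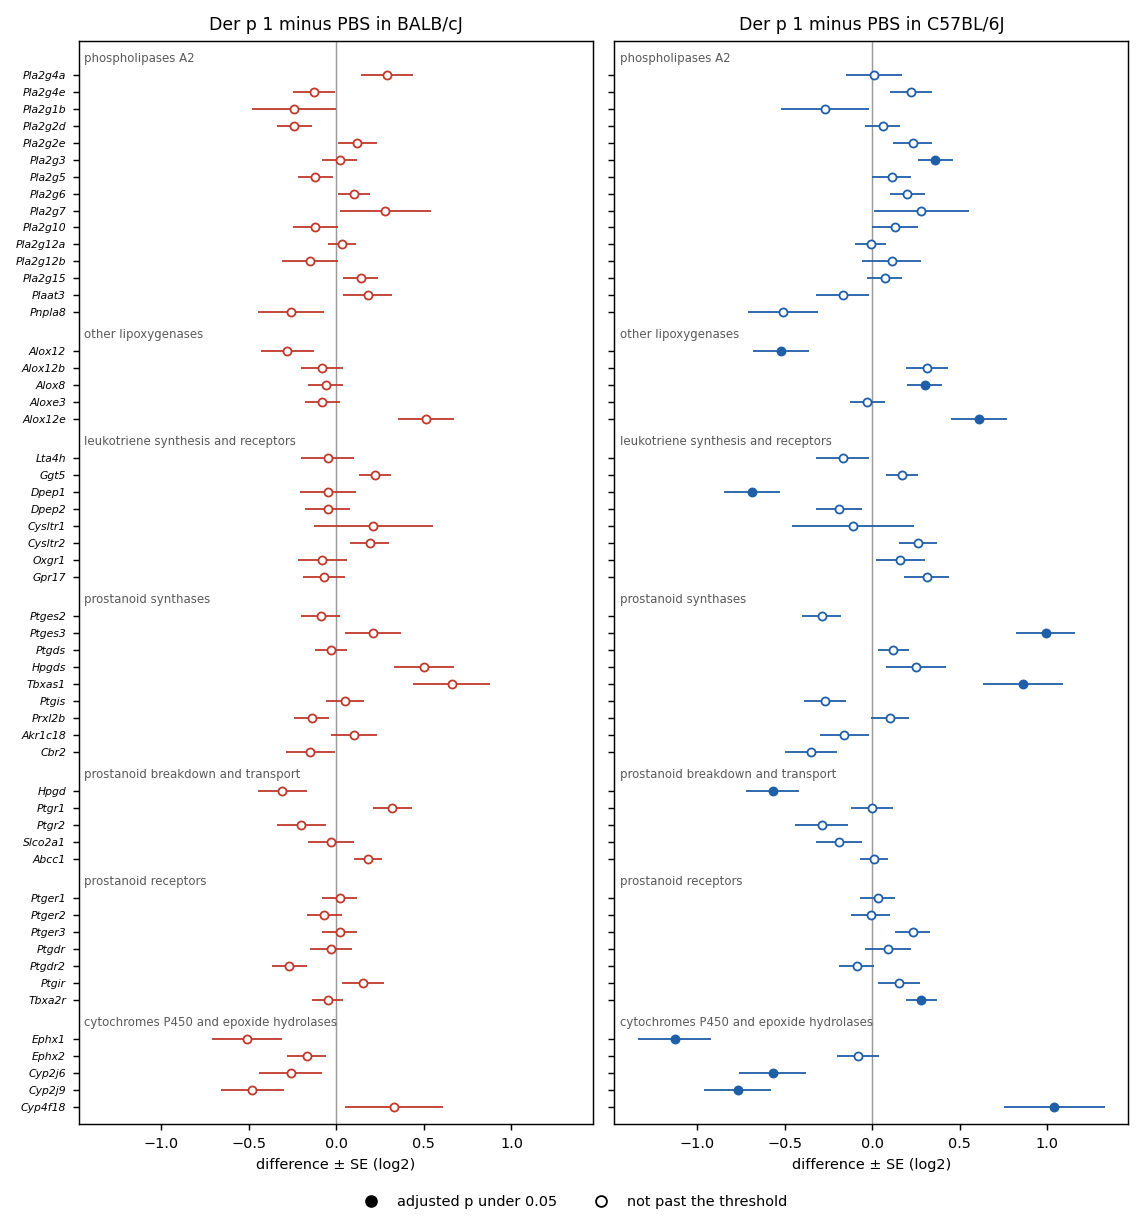
Difference between Der p 1 and PBS mice (x axis, log2; lines give the SE) of 54 other pathway genes (y axis) grouped by list, in BALB/cJ (left) and C57BL/6J mice (right); filled points have an adjusted p under 0.05. No point is filled in BALB/cJ mice, and in C57BL/6J mice 13 are, with Cyp4f18, Ptges3 and Tbxas1 farthest right and Ephx1 and Cyp2j9 farthest left.

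Of 92 marker genes of lung cell types, 17 passed in BALB/cJ challenge, where 1.93% of all clusters did. In C57BL/6J challenge 37 passed, where 18.8% of all clusters did. By list some C57BL/6J shares were close to that, such as 22.2% of mast cell and basophil and 16.7% of smooth muscle markers. All 4 measured goblet cell markers rose in each strain, and their summed level had a median of 12.13 after Der p 1 and 7.54 after PBS in BALB/cJ mice (ranges 7.74 to 12.83 and 7.33 to 12.83), and of 12.10 and 8.57 in C57BL/6J mice (10.65 to 12.98 and 7.48 to 12.76). Of 6 smooth muscle markers 3 rose in BALB/cJ mice and 1 fell in C57BL/6J mice. Of 7 markers of alternatively activated macrophages 5 rose in BALB/cJ and 7 in C57BL/6J mice. Of 5 eosinophil markers 0 passed in BALB/cJ mice (sums of 7.14 to 9.88 after Der p 1 and 7.57 to 9.45 after PBS) and 3 rose in C57BL/6J mice (7.15 to 10.84 and 7.34 to 8.53): Ccr3, Prg2 and Il5ra. Of 9 mast cell and basophil markers 0 passed in BALB/cJ mice, and 1 rose and 1 fell in C57BL/6J mice. Of 5 endothelial markers 1 fell in BALB/cJ and 3 fell in C57BL/6J mice. Of 4 club cell markers 0 passed in BALB/cJ mice, and in C57BL/6J mice Scgb3a2 and Cyp2f2 fell and Scgb1a1 rose. Of 4 platelet markers 1, Ppbp, fell in C57BL/6J mice. Of 7 macrophage markers Mrc1 rose in BALB/cJ mice, and Mrc1 and Siglec1 rose and Mertk fell in C57BL/6J mice. Of 5 fibroblast markers Col1a1 and Col3a1 rose in both strains, and Dcn fell in C57BL/6J mice. Of 5 T cell markers 0 passed in BALB/cJ mice, and Cd3e, Cd3g and Cd4 rose in C57BL/6J mice. Of 5 alveolar type I markers Rtkn2 fell in both strains and Hopx in C57BL/6J mice. In C57BL/6J mice Cldn4 of 4 epithelial markers and Tekt1 of 5 ciliated cell markers fell too. No marker of neutrophils (8), B cells (4) or alveolar type II cells (5) passed in either strain. These values have no zero, so no marker can be called absent. The part of cell numbers in the changes of the eicosanoid genes was not tested.

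Across the 48 mice, each with the mean of its group removed, some members varied together. Of 36 pairs, 16 had a permutation p for Pearson's r under 0.05 after adjustment over the pairs, and 12 for Spearman's rho. That test leaves the number series in the values. With the mean of each group within a series removed and permutations within those cells, a test added after seeing the data, 17 pairs passed for r and 15 for rho, and 14 of the 16 were among the 17. Alox5 and its partner Alox5ap had r = 0.79 and Spearman's rho = 0.83, each at the smallest p that 100000 permutations within groups can give (1e-05; adjusted 9e-05 and 0.00012). Without the 2 mice farthest from the median of Alox5, r was 0.81, and it was 0.70 within series 5 (n = 20) and 0.66 within series 6 (n = 28). Alox15 and Ptger4 had r = 0.76 and rho = 0.68 (permutation p = 1e-05 and 2e-05; adjusted 9e-05 and 0.00018), or 0.68 without the 2 farthest mice. That relation did not hold in both series: r was 0.87 in series 6 and −0.11 in series 5. Alox15 and Ptges had r = 0.66 and rho = 0.60 (permutation p = 2e-05 and 7e-05; adjusted 0.000144 and 0.00042), and r = 0.61 without the 2 farthest mice. Their r was positive in both series, at 0.78 in series 6 and a lower 0.31 in series 5. Alox15 and Alox5 had r = 0.69 and rho = 0.65 (permutation p = 1e-05 and 3e-05; adjusted 9e-05 and 0.000216), 0.64 without the 2 farthest mice, but 0.08 within series 5 and 0.56 within series 6. Alox15 and Alox5ap had r = 0.69 and rho = 0.72 (permutation p = 1e-05 each; adjusted 9e-05 and 0.00012), 0.68 without the 2 farthest mice, 0.29 within series 5 and 0.53 within series 6. With series means removed, r of Alox15 was 0.50 with Alox5, 0.41 with Alox5ap, 0.69 with Ptger4, 0.60 with Ptges and 0.69 with Pla2g4c. Those with Ltc4s (−0.17) and Ptgs2 (−0.28) did not pass. Alox15 and Ptgfr then had r = −0.63 and rho = −0.60 (permutation p = 5e-05 and 6e-05; adjusted 0.00045 and 0.00072). Their r was −0.47 in series 5 and −0.69 in series 6, but −0.25 with only group means removed (permutation p = 0.135, adjusted 0.221). Alox15 and Pla2g4c had r = 0.48 (rho = 0.34; permutation p = 0.00156 and 0.0308, adjusted 0.00511 and 0.0854), which was 0.43 without the 2 farthest mice and 0.24 without mouse633, mouse634 and mouse644, yet 0.63 in series 5 and 0.71 in series 6. Ptgs2 and Ptgfr had r = 0.49 and rho = 0.51 (permutation p = 0.00194 and 0.0006, adjusted 0.00582 and 0.0024), 0.46 without the 2 farthest mice, 0.44 in series 5 and 0.61 in series 6.

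**Figure D5:**
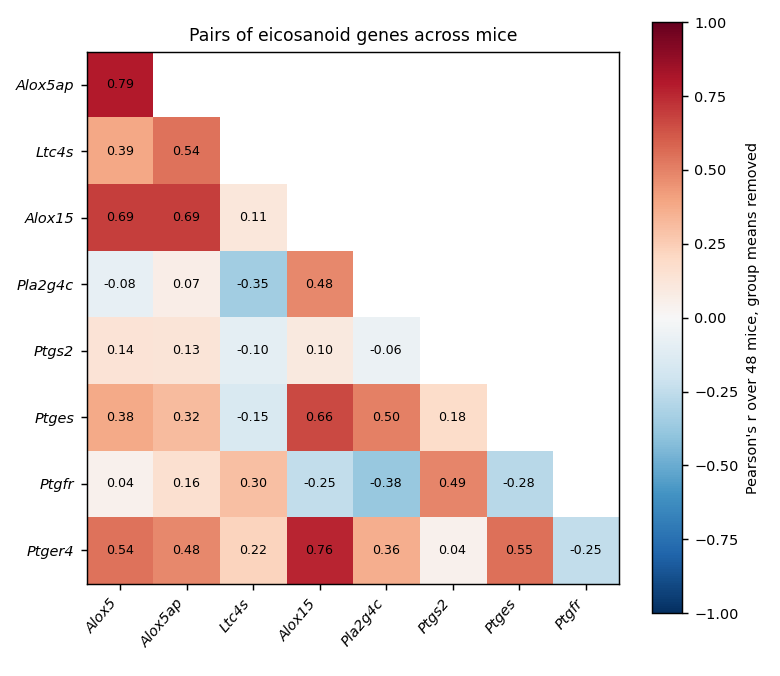
Pearson's r between pairs of 9 eicosanoid genes (both axes) over 48 mice after the group mean was removed; colour and number give r. Alox5, Alox5ap and Alox15 have r of 0.69 to 0.79 with each other (0.08 to 0.70 within series 5) and Alox15 with Ptger4 has 0.76, while Pla2g4c has r of −0.08 and 0.07 with Alox5 and Alox5ap.

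The genes most like each called member over the same 48 mice are given as a description, with no test; what mice of a number series share is not known. For Alox15 they were Cyp4f18, Cd209e and F5 (r = 0.89 each), and Cyp4f18 is the pathway gene with the largest rise in C57BL/6J lungs above. For Pla2g4c they were Scin (0.89), the chitinase-like gene Chil4 (0.87) and the intelectin Itln1 (0.81). Mouse633, mouse634 and mouse644 are kept in all these correlations, and Chil4 is 1 of the 5 genes by which they were picked. The correlations without these mice were not computed. Ptgs2 was most like Crat (0.81), Prep (0.80) and Arhgap1 (0.78), and Ptges most like Mcm5 (0.81), Igf1 (0.78) and Txndc5 (0.78). Ptgfr was most like Pcolce2 (0.86), Tecrl (0.85) and Igfbp6 (0.85). Ptger4 was most like P2rx1 (0.80), Aldh1a3 (0.80) and Slamf8 (0.79).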

How the data were processed

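Gene expression was measured in the right lower lung lobe of 48 male mice on 62 exon arrays. Each deposited value is a log2 level of a transcript cluster, which the authors summarised with RMA from core exons in Partek Genomics Suite, per the labels' descriptions and the submitters' processing notes; the version and genome build are not given in the sources used here. Deposited values ran from 1.27 to 13.8. Arrays have no read depth, and the number of arrays limits their precision: repeat arrays of a mouse had a median SD of 0.190 over clusters. Raw intensities were not used here, so probes over strain polymorphisms could not be examined. Of 16715 clusters 14959 carried 1 symbol, 1016 several and 740 none, by the platform annotation.

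Groups came from the labels, and arrays of 1 mouse were averaged. A model with 1 mean per group was fitted with limma 3.58.1 in R 4.3.3 (statmod 1.5.0 for the random effect), which gave 5 comparisons, adjusted by Benjamini and Hochberg over all clusters, with a threshold of 0.05. It was tested on simulated data. Members and lists were chosen with earlier results of these data known. Named are all members, pathway genes past the threshold with examples that did not pass, taken from the brightest of each list (a choice of rows only), and the 3 genes most correlated with each called member. Repeat arrays of 7 mice carry numbers that name arrays and pair no mice. Alternatives were quantile normalization again, median centring, the first array of each mouse, a random effect of mouse, a filter on the dimmest 25% of clusters, array weights, a robust and trended prior, the compared groups only, number series as a covariate or alone, array SD as a covariate, leaving out mouse633 and mouse634, the mean of a gene's rows and leaving out each mouse. Leaving out the 3 mice, with and without the number series, was added after seeing the data. Marker sums are log2 of summed unlogged values. The 36 pair correlations were permuted within groups and, added after seeing the data, within groups and number series.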

Additional observations from a re-analysis of the deposited data

How the results depend on the processing

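No paired analysis was possible because no label ties mice of different groups to each other, and a mouse belongs to 1 group only. Of the 9 members in BALB/cJ challenge, 3 passed in all mice, 5 without mouse633 and mouse634 (809 of all clusters), 5 without the 3 mice (790), also with the number series as a covariate (1234), 5 with array weights (1361), 1 in series 5 alone and 0 in series 6 alone, and 0 to 5 without single mice. In C57BL/6J challenge 5 passed, and 3 with series 5 by itself; in the strain difference of the response 0 passed, and 1 with array weights. After Der p 1, 2 differed between strains, 0 with array SD as a covariate, 1 each in series 5 alone, with only the groups compared and after quantile normalization, and 1 to 2 without single mice. Of the 54 other pathway genes 0 passed in BALB/cJ challenge; 1 did with array SD, with the random effect and after quantile normalization, 3 with the number series, 4 without the 3 mice, 6 without mouse633 and mouse634, 7 with array weights and without the 3 mice with the number series, and 0 to 3 without single mice. In C57BL/6J challenge 13 passed, 4 with series 5 by itself, and 20 with the number series, with array weights and without the 3 mice with the number series. In the strain difference of the response 0 passed, and 7 with array weights. After PBS 3 differed between strains, 1 in series 5 alone, 10 with array weights, and 5 with array SD, the number series, only the groups compared, or without the 3 mice with the number series. After Der p 1, 7 did; 1 in series 5 alone, 3 with only the groups compared, 4 without mouse633 and mouse634 or the 3 mice, 12 in series 6 alone, 13 with array weights or without the 3 mice with the number series, 17 with the number series, and 4 to 12 without single mice. Over all clusters, BALB/cJ challenge called 323, and 133 in series 5 alone, 0 in series 6 alone, 488 with the random effect, 538 with the number series and 748 with array SD. C57BL/6J challenge called 3146, and 305 in series 5 alone, 4849 without the 3 mice with the number series, 5480 with the number series and 7035 with array weights. The strain difference of the response called 2, and 1759 with array weights, 0 in series 5 alone and 1 to 7 in the others. The strains differed after PBS in 779, 275 in series 5 alone, 1249 with array SD and 1765 with array weights, and after Der p 1 in 2222, 219 in series 5 alone, 1438 with only the groups compared, 3560 in series 6 alone, 3652 without the 3 mice with the number series, 4509 with the number series and 4527 with array weights. The cause of these moves was not tested. Each series alone holds fewer mice, and series 6 alone called 4069 clusters in C57BL/6J challenge, against 3146 in all mice.

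No member that passed changed sign under any alternative. Signs turned in differences that did not pass in either setting. In series 5 alone these were Alox5 in BALB/cJ (−0.03) and C57BL/6J challenge (−0.29), its strain difference (0.26) and its difference after Der p 1 (0.23), Alox5ap in C57BL/6J challenge (−0.21), after PBS (0.03) and after Der p 1 (0.29), Ltc4s in BALB/cJ (−0.09) and C57BL/6J challenge (−0.04) and after PBS (0.02), Ptgfr after PBS (0.15), and Ptger4 in its strain difference (−0.05) and after Der p 1 (−0.01). In series 6 alone Ptgs2 in BALB/cJ challenge was 0.08 and Ltc4s in its strain difference 0.06. With the number series Alox5ap in C57BL/6J challenge was −0.01. After quantile normalization Ltc4s in BALB/cJ challenge and Alox5ap in its strain difference were 0. After median centring Ltc4s was −0.02 and −0.03 in BALB/cJ and C57BL/6J challenge and 0.01 in its strain difference, and with first arrays −0.03 in BALB/cJ challenge. With array weights Ltc4s was 0.02 in its strain difference, Alox15 −0.01 after PBS and Ptges −0.01 after Der p 1. With array SD Alox5ap (−0.11) and Ltc4s (0) turned in their strain differences and Ptges (−0.04) after Der p 1. Without mouse633 and mouse634 Alox15 after PBS was −0.10. Without the 3 mice Ltc4s was −0.02 in C57BL/6J challenge and 0.03 in its strain difference. With the number series as well, Ltc4s was −0.05 and 0.05 there, Alox5ap −0.01 in C57BL/6J challenge and 0.01 after Der p 1, and Alox5 0 in its strain difference. Without single mice Alox15 after PBS ran from −0.10 to 0.37, Ptges after Der p 1 from −0.03 to 0.12, Ltc4s from −0.03 to 0.06 and −0.02 to 0.08 in BALB/cJ and C57BL/6J challenge, and the strain differences of Alox5 from −0.20 to 0.01, Ltc4s from −0.07 to 0.03 and Ptger4 from −0.03 to 0.10. The values are log2 signals with no background measure here, so a low level and no expression cannot be told apart.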
